A study of Mus musculus with 4 samples.

Results

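The levels of 9 genes of the NF-κB system were followed through intestinal T cells that differ in TGFβ receptor signalling. They are the 5 subunits of the transcription factor (Nfkb1, Rela, Rel, Nfkb2 and Relb) and 4 regulators. The regulators are the feedback inhibitors Nfkbia and Tnfaip3, and Nfkbid and Nfkbiz, the genes of nuclear IκB proteins. All 9 genes were taken by symbol from the deposited table, where they were present among 13265 genes. Each had at least 200 corrected UMIs, the minimum that 7490 genes reached. Single-cell RNA-seq was done on YFP+CD4+ T cells of the small intestine from mice aged 7 to 8 months, where Il17a-cre has switched on a Rosa26-stop fl/fl-yfp reporter, so that YFP marks cells that have at some time expressed Il17a, the TH17 cytokine gene. In TGFbR-KO mice Il17a-cre also deletes floxed Tgfbr2, in TGFbR-CA mice (RCA in the labels) it removes a floxed stop in front of a constitutively active Tgfbr1, and TGFbR-WT mice carry Il17a-cre and the reporter without either allele. The table holds 2975 TGFbR-KO, 1098 TGFbR-CA and 1007 TGFbR-WT cells. The change in each receptor is limited to cells that have driven Il17a-cre, each of the 4 samples is a pool of mice, and there is 1 sample each of TGFbR-KO and TGFbR-CA and 2 of TGFbR-WT.

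NF-κB dimers wait in the cytoplasm bound to IκB proteins or as unprocessed precursors. In the classical arm, T cell receptor or cytokine signals activate IκB kinase, IκBα is degraded, and dimers of p50 with RelA or c-Rel enter the nucleus. In the alternative arm p100 is processed to p52, which pairs with RelB. The pathway switches on its own inhibitors, so that IκBα and A20 are both targets and brakes of NF-κB, and Nfkbia and Tnfaip3 RNA is widely read as a record of recent signalling.

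The deposited values are natural logs of corrected UMIs plus 1. The log was undone, and the level of a gene in a group of cells is its corrected UMIs per 10000 corrected UMIs of that group. The share of cells above 0 is given with an exact (Clopper-Pearson) 95% interval, which covers counting error between cells only. With 1 TGFbR-KO and 1 TGFbR-CA sample no test between conditions was possible, and no p-value is given. The names of TGFbR-WT cells divide them into sets of 709 (larger) and 298 (smaller), and the labels tie neither set to a TGFbR-WT sample. A gene was called higher or lower in a condition when its level differed by at least 1.5-fold, in the same direction, from the pooled TGFbR-WT cells and from each TGFbR-WT set. Both conditions were set against the same TGFbR-WT cells. Per the study's methods, TGFbR-KO and TGFbR-CA cells were sequenced in separate runs, each with TGFbR-WT cells, but the labels do not say which TGFbR-WT set came from which run, so run and condition cannot be told apart and ratios to each set are given for the main results. The sets of TGFbR-WT cells differed from each other by 1.5-fold or more at 21.9% of genes, among the members only at Nfkb2 (0.355 larger, 0.610 smaller).

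Cells carry the deposited names of 8 clusters, given here as tumorigenic (cluster 1), CTL (2), GC TFH (3), TR TFH (4), cycling (5), migratory (6), activated (7) and pretumorigenic (8). A list of 7 T cell genes (CD3, Cd4 and T cell receptor constant genes) was detected in at least 99.9% of cells of each condition. Lists of CD8, γδ T, B and epithelial cell genes each summed to at most 0.269 per 10000 in a condition. A myeloid list summed to between 1.90 and 2.02, with the dendritic marker Itgax at 0 in TGFbR-WT and TGFbR-CA cells. In TGFbR-KO most of this sum was Cst3, at 1.57 in cluster 1 and 1.90 in the other clusters together. Tgfbr2 was at 1.48 per 10000 in TGFbR-KO, 1.72 and 1.76 in the larger and smaller TGFbR-WT sets and 1.78 in TGFbR-CA cells, and 3′ reads need not cover a deleted exon. Tgfbr1 was at 0.792 in TGFbR-CA, 0.219 in TGFbR-KO, 0.367 in the larger and 2.79 in the smaller TGFbR-WT set. The smaller TGFbR-WT set thus lay above the cells labelled as carrying the active form. Whether 3′ reads of Tgfbr1 count that form was not tested. Cluster 8 made up 17.4% of cells in the smaller and 3.81% in the larger TGFbR-WT set, and 7.56% in TGFbR-CA. The paper reports raised Tgfbr1 in pretumorigenic cells of TGFbR-WT mice. The part of cluster 8 in these Tgfbr1 levels was not tested. Whether the labels of the smaller TGFbR-WT set and the TGFbR-CA cells are right was also not tested. An error in them would change what the TGFbR-CA and pooled TGFbR-WT values stand for. Conditions are named as the cells are labelled. The median was 3794 corrected UMIs per cell in TGFbR-KO, 3918 in TGFbR-CA and 3659 in TGFbR-WT cells. Only 5 TGFbR-WT and 2 TGFbR-CA cells were in cluster 1, so this cluster was described in TGFbR-KO cells alone. In all, 16 cell barcodes stood in more than 1 set of cells, 14 of them in TGFbR-KO and the larger TGFbR-WT set, and leaving these cells out kept the number of members called at 5 in TGFbR-KO.

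The promoters of 4 members are shown because their genes (Nfkbia, Tnfaip3, Rel and Nfkbid) were among the 5 members whose levels were above those of other TGFbR-KO cells in clusters 1 and 8. Each run is the 250 bases before an annotated RefSeq transcript start on GRCm38.p6, 5′ to 3′ on the gene's strand, and capitals mark matches to the classical κB consensus searched on both strands.
Nfkbia, chr12:55492648-55492897, minus strand: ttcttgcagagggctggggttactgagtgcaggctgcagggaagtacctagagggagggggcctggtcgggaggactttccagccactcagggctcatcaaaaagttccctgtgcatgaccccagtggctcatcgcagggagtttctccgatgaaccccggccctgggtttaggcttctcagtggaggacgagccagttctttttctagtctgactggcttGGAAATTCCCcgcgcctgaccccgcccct
Tnfaip3, chr10:19015411-19015660, minus strand: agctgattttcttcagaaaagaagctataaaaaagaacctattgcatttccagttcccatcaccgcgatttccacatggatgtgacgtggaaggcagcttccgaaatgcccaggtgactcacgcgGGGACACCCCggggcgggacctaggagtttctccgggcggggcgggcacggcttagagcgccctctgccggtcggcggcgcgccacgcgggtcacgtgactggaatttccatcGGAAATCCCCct
Rel, chr11:23770970-23771219, minus strand: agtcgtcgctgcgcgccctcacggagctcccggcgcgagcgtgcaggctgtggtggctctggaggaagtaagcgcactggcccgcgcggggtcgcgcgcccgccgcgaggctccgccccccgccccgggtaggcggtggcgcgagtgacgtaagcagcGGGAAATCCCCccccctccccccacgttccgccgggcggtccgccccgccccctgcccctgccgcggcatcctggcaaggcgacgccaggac
Nfkbid, chr7:30422156-30422405, plus strand: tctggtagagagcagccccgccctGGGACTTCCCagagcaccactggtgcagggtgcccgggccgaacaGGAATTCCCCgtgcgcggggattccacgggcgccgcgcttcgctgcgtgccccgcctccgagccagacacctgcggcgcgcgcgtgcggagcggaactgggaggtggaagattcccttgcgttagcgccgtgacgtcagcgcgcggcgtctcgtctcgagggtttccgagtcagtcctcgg

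The match in Nfkbia began 29 bases before the start, those in Tnfaip3 125 and 12 bases, the overlapping pair in Rel 92 and 91 bases, and those in Nfkbid 226 and 181 bases. Windows of 250 bases before to 50 after a start were at hand for 6 members, and 5 of them held a match (Rel, Nfkb2, Nfkbia, Tnfaip3 and Nfkbid). Some genes have several windows, and 7 of the 11 member windows held a match, against 4.51% of all 32851 windows. For Tnfaip3 and Nfkbid the run shown is from the window that held matches, and their other windows held none. Some Nfkb2 windows overlap, and a match that they share is counted in each. Rela had a window without a match, and Nfkb1, Relb and Nfkbiz are named only. A match describes letters in a window and is not evidence of binding.

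Of the classical subunits, Nfkb1 (chr3:135584655-135691547), which encodes the p105 precursor of p50, was at 1.26 in TGFbR-KO cells, 2.02 in the larger and 2.51 in the smaller TGFbR-WT set, and 2.52 in TGFbR-CA cells. TGFbR-KO lay below both TGFbR-WT sets, and TGFbR-CA was level with the smaller one. Against pooled TGFbR-WT cells the ratio was 0.58 in TGFbR-KO and 1.16 in TGFbR-CA. Nfkb1 was detected in 36.0% of TGFbR-KO cells (34.2% to 37.7%), 48.7% of TGFbR-WT cells and 52.6% of TGFbR-CA cells. Within clusters it was 1.10 in TGFbR-KO against 2.11 in TGFbR-WT cells of TR TFH (0.52-fold) and 1.39 against 2.45 in activated cells (0.57-fold), both called. In GC TFH cells it was 1.75 against 2.92, not called because the larger TGFbR-WT set was at 2.44, and in migratory and cycling cells, which were not compared, 1.43 against 1.66 and 0.805 against 0.940. With clusters 1 and 8 left out Nfkb1 was 0.59-fold over the remaining cells.

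Rel (chr11:23736847-23770970) encodes c-Rel, the subunit most tied to lymphocyte activation. Its level was 1.65 in TGFbR-KO cells, 1.03 and 0.750 in the larger and smaller TGFbR-WT sets, and 0.755 in TGFbR-CA cells. TGFbR-KO stood above both TGFbR-WT sets by 1.61-fold and 2.20-fold, and by 1.76-fold over the pool. Rela (chr19:5637483-5648130), which encodes p65, the main activating partner of p50, was at 0.725 in TGFbR-KO, 0.958 and 0.931 in TGFbR-WT and 0.792 in TGFbR-CA cells. None of the Rela ratios over all cells reached 1.5-fold either way.

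The alternative subunits were at low levels and were not called. Nfkb2 (chr19:46304320-46312385), the p100 gene, was at 0.343 in TGFbR-KO, 0.438 in pooled TGFbR-WT and 0.395 in TGFbR-CA cells. Relb (chr7:19606217-19629438), whose product pairs with p52, was at 0.552, 0.718 and 0.831 in the same order. For Nfkb2 the sets of TGFbR-WT cells lay further apart than any condition lay from the pool.

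Both feedback inhibitors were called higher in TGFbR-KO, and Tnfaip3 had the widest ratio of the 9 members. Tnfaip3 (chr10:19000910-19015657) encodes A20, a ubiquitin-editing enzyme that shuts off signalling upstream of IκB kinase, and was at 3.56 in TGFbR-KO cells, 0.758 and 1.13 in the TGFbR-WT sets and 0.714 in TGFbR-CA cells. It was 4.05-fold higher in TGFbR-KO than in pooled TGFbR-WT cells, and by 3.15-fold over the nearer set. Nfkbia (chr12:55489410-55492647), the gene of IκBα, was at 6.33 in TGFbR-KO cells, 3.73 and 4.03 in the TGFbR-WT sets and 3.59 in TGFbR-CA cells, a 1.65-fold difference between TGFbR-KO and the pool. The share of cells with Nfkbia was close in both, at 53.9% of TGFbR-KO and 52.0% of TGFbR-WT cells. The cells with Nfkbia held a mean of 4.53 corrected UMIs in TGFbR-KO and 2.72 in TGFbR-WT, so the difference lay in the amount per positive cell. For Tnfaip3 both parts differed, with 28.6% against 17.2% of cells and 4.79 against 1.89 UMIs per positive cell.

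The nuclear IκB proteins act with p50 on chromatin to alter which target genes are read. Nfkbiz (chr16:55811375-55838899), the gene of IκBζ, which is known as a cofactor in TH17 cells, was at 1.72 in TGFbR-KO cells, 0.650 and 0.470 in the TGFbR-WT sets and 0.468 in TGFbR-CA cells. TGFbR-KO was 2.91-fold above the pool. Nfkbid (chr7:30421732-30428746), the gene of IκBNS, was at 0.650, 0.491, 0.453 and 0.452 in the same groups, and its 1.36-fold ratio was not called.

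Over all cells, 5 of the 9 members were called in TGFbR-KO, 4 higher (Rel, Nfkbia, Tnfaip3 and Nfkbiz) and 1 lower (Nfkb1), where 8.21% of 7467 genes were called in either direction, 2.76% higher and 5.45% lower. The median gene was at 0.89 of its TGFbR-WT level (log2 -0.17) in TGFbR-KO and 0.93 (log2 -0.11) in TGFbR-CA cells, and after division by that median Nfkb1 was no longer called and the other 4 were. On the share of cells above 0, on the mean of log values, at a fold of 2 or without clusters 1 and 2, only Tnfaip3 and Nfkbiz were called, and by the share of cells Nfkbia was at 1.04-fold. Without the smaller TGFbR-WT set the same 5 members were called in TGFbR-KO, where 13.8% of genes were. In TGFbR-CA no member was called, at ratios from 0.79 to 1.16, where 3.94% of genes were.

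**Figure D1:**
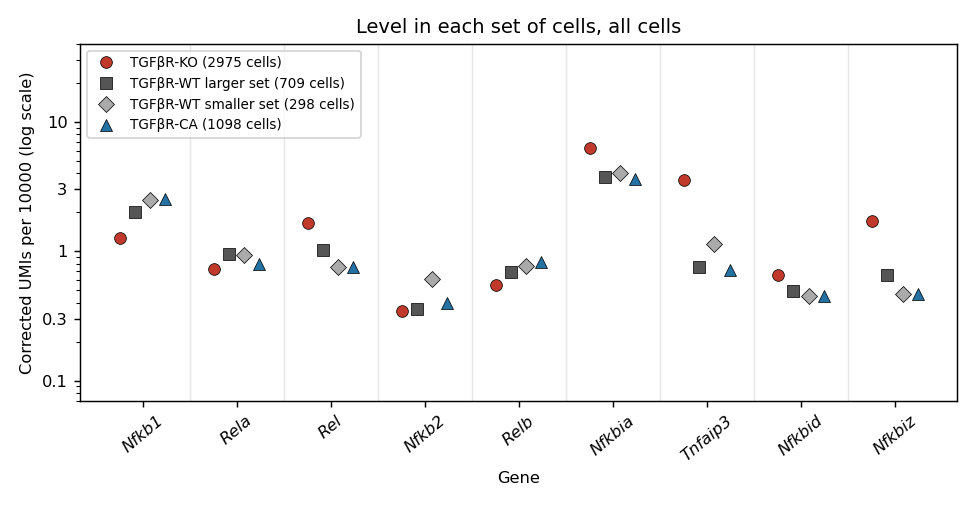
Level of each of the 9 members in corrected UMIs per 10000 (log axis) over all cells of TGFbR-KO, of the larger and smaller TGFbR-WT sets and of TGFbR-CA, 1 point per set. The TGFbR-KO points of Tnfaip3 (3.56), Nfkbia (6.33), Nfkbiz (1.72) and Rel (1.65) lie above the other 3 points of their gene, and that of Nfkb1 (1.26) lies below.

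The levels over all cells rested on clusters 1 and 8. In TGFbR-KO these clusters held 19.9% of all corrected UMIs but 88.5% of those of Tnfaip3, 70.2% of Nfkbiz, 63.8% of Nfkbid, 63.3% of Nfkbia and 60.3% of Rel. The same clusters held 17.7% of Nfkb1, 19.6% of Rela, 21.6% of Nfkb2 and 16.6% of Relb, shares near that of all UMIs. These 5 members thus lay mostly in clusters 1 and 8 of TGFbR-KO, and the other 4 had no such excess there. In TGFbR-WT, where clusters 1 and 8 held 8.4% of all UMIs, they held 43.1% of the Tnfaip3 UMIs, 16.1% of Nfkbia and 7.2% of Rel. In TGFbR-CA they held 7.5% of all UMIs and 47.0% of the Tnfaip3 UMIs, 18.5% of Nfkbia and 6.6% of Rel.

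**Figure D2:**
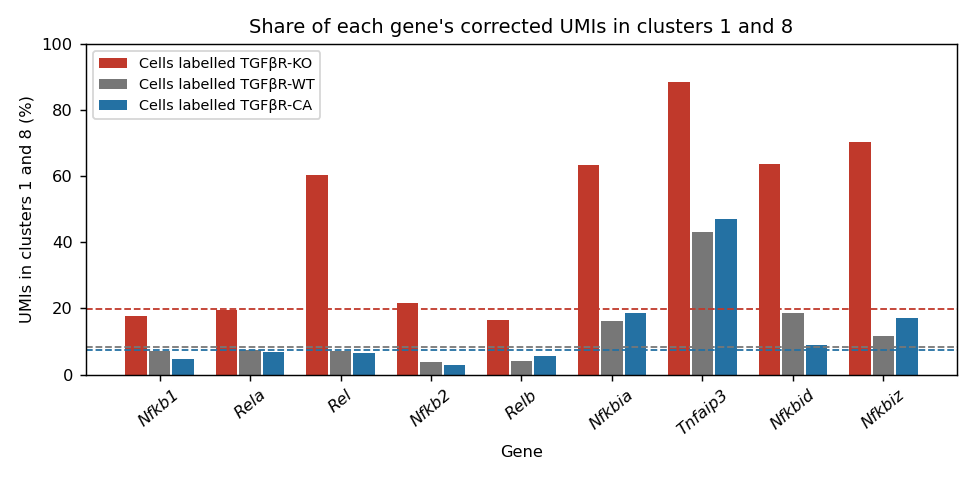
Percent of each member's corrected UMIs that lay in clusters 1 and 8, by condition; dashed lines give the percent of all corrected UMIs in these clusters (19.9 in TGFbR-KO, 8.4 in TGFbR-WT and 7.5 in TGFbR-CA). Tnfaip3 is far above the line in every condition, and the 4 subunits Nfkb1, Rela, Nfkb2 and Relb lie near or below it.

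With clusters 1 and 8 left out, a choice made after the values were seen, 1 member was called in TGFbR-KO (Nfkb1, lower, 0.59-fold), where 7.42% of genes were called. The ratios to TGFbR-WT were then 0.86 for Rel, 0.83 for Nfkbia, 0.93 for Tnfaip3, 1.12 for Nfkbiz and 0.69 for Nfkbid. The excess of Rel, Nfkbia, Tnfaip3 and Nfkbiz in TGFbR-KO was therefore not seen in the other 6 clusters together. No member was called in TGFbR-CA in these clusters, against 3.86% of genes. When the 4 clusters with at least 20 cells of every set (GC TFH, TR TFH, activated and pretumorigenic) were given equal weights, 3 members were called in TGFbR-KO, Nfkb1 lower (0.59-fold) and Tnfaip3 (2.38-fold) and Nfkbiz (2.49-fold) higher, where 5.87% of genes were called in either direction, and none in TGFbR-CA, where 4.84% were.

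Across the clusters of TGFbR-KO cells the 5 genes had their largest levels in cluster 1 and the next largest in cluster 8. No test goes with this order, since the clusters were made from these cells' expression. Tnfaip3 was at 17.7 in cluster 1, 12.7 in cluster 8 and 2.63 in cycling cells, and at 0.182 to 0.666 in the other 5 clusters, lowest in TR TFH. Its share of cells ran from 96.7% in cluster 1 (94.3% to 98.3%) and 78.3% in cluster 8 down to 6.36% in TR TFH, and 4 of the 7 steps between neighbouring clusters had share intervals that did not overlap. Tnfaip3 thus set clusters 1 and 8 apart from the rest by a wider margin than did the other members.

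Nfkbia was at 22.3 in cluster 1, 16.6 in cluster 8, 7.19 in cycling and 4.17 in GC TFH cells, and at 2.17 in TR TFH cells. It was detected in 96.1% of cluster 1 cells (93.6% to 97.9%) and 76.1% of cluster 8 cells, but also in 40.5% of TR TFH cells, so that Nfkbia was a gene of all clusters with a raised amount in these. In cluster 1 the median cell held 7 corrected UMIs of Nfkbia and 6 of Tnfaip3. Of the 77 cycling TGFbR-KO cells, 11 carried a barcode also found in the TGFbR-WT cells or TGFbR-CA cells, and cycling TGFbR-WT cells, where 13 of 45 did, were at 3.64 for Nfkbia and 0.705 for Tnfaip3.

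Rel was at 5.98 in cluster 1, 3.39 in cluster 8, 2.29 in GC TFH and 1.49 in cycling cells, and between 0.457 and 0.695 in the other 4 clusters. Nfkbiz followed it, at 7.24, 4.20, 1.34 and 1.46 in the same clusters and between 0.384 and 0.793 in the rest. Nfkbid was at 2.17 in cluster 1, 1.95 in cluster 8 and 1.05 in GC TFH cells, against at most 0.310 elsewhere. Rel and Nfkbid therefore had a raised level in GC TFH cells as well, where Tnfaip3 (0.666) was near that of activated (0.458) and CTL (0.554) cells.

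The other subunits did not follow this order. Nfkb1 was at most 1.75 (GC TFH) and at least 0.805 (cycling) in TGFbR-KO clusters, and for Nfkb1, Rela and Nfkb2 the share intervals of all 7 pairs of neighbouring clusters overlapped. Neighbours are next to each other in level, so this overlap does not show that all clusters were alike. For Nfkb1 the share interval was 39.4% to 50.6% in GC TFH and 28.2% to 36.4% in TR TFH cells of TGFbR-KO. For Nfkb2 it was 13.6% to 22.3% and 5.89% to 10.8% in the same clusters. These intervals lie apart, while for Rela those of all clusters overlapped. Relb ranged from 0.379 in cluster 8 to 1.07 in GC TFH cells. Against all other TGFbR-KO cells, cluster 1 was at 5.75-fold for Rel, 4.96-fold for Nfkbid and 7.64-fold for Nfkbiz, and at 0.80-fold for Nfkb1, 1.06-fold for Rela, 1.16-fold for Nfkb2 and 0.91-fold for Relb, where 6.43% of genes were higher by 1.5-fold. Rel was the only subunit among the 5 in which cluster 1 passed that size. Cluster 1 also passed it over cluster 8 for Rel (1.77-fold) and Nfkbiz (1.72-fold), in a comparison where 24.5% of genes did in either direction.

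**Figure D3:**
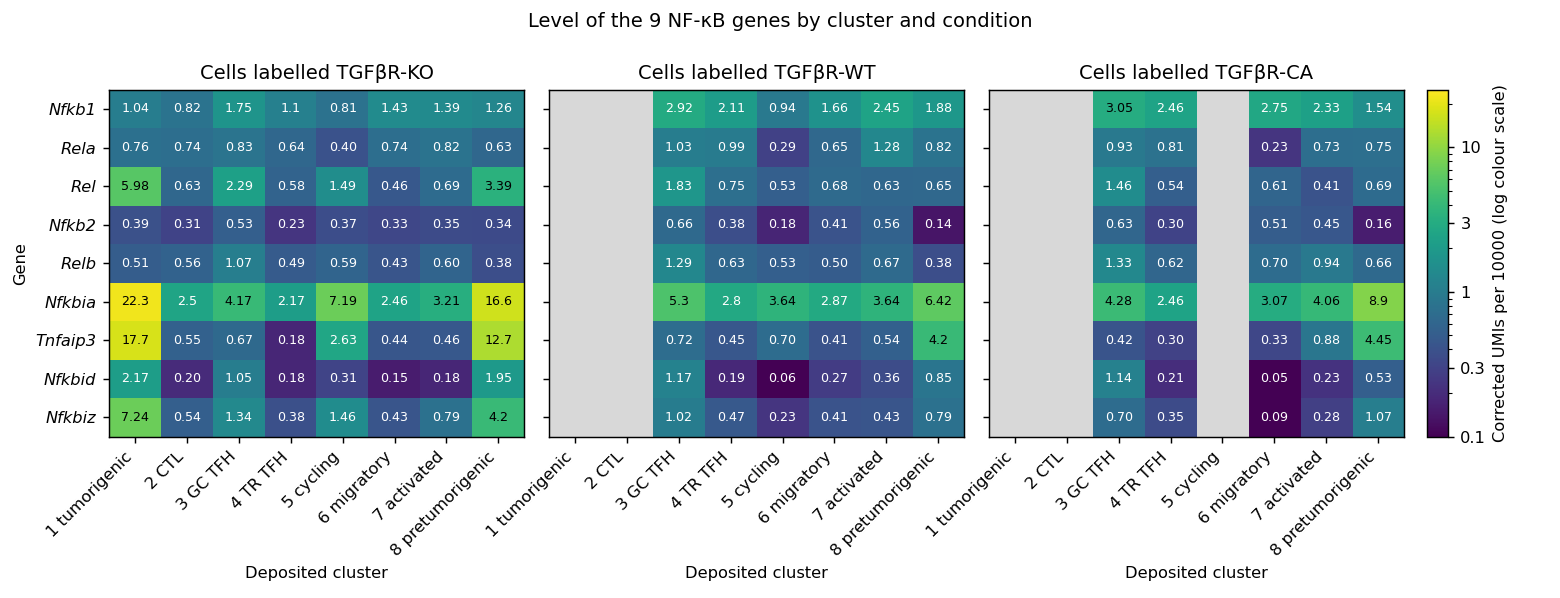
Level of each member (corrected UMIs per 10000, log colour scale that ends at 0.1) in the 8 clusters of TGFbR-KO, TGFbR-WT and TGFbR-CA cells, 1 panel per condition; grey marks clusters with under 20 cells. Nfkbia and Tnfaip3 reach the top of the scale in clusters 1 and 8 of TGFbR-KO (22.3 and 17.7 in cluster 1), while Nfkb1, Nfkb2 and Relb peak in GC TFH cells in every panel.

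GC TFH cells held the top level of Nfkb1, Nfkb2 and Relb in each condition, among clusters of at least 20 cells. For Nfkb1 and Nfkb2 its share interval overlapped that of the next cluster in each condition, and for Relb in TGFbR-CA. In TGFbR-CA Nfkb1 was at 3.05 in GC TFH and 2.75 in migratory cells. Relb was at 1.07 in TGFbR-KO, 1.29 in TGFbR-WT and 1.33 in TGFbR-CA cells of GC TFH, which was 2.18, 2.05 and 2.15 times its level in TR TFH cells. Nfkbid was 5.77, 6.23 and 5.53 times its TR TFH level in the same 3 conditions. Of the 9 members, 8 were higher by 1.5-fold in GC TFH than in TR TFH cells of TGFbR-KO (all but Rela), 7 in TGFbR-WT and 6 in TGFbR-CA. Of all genes 23.2%, 17.0% and 16.4% were higher in these comparisons, which are descriptions of clusters and carry no test.

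Of the 4 clusters that could be compared between TGFbR-KO and TGFbR-WT, cluster 8 had the most members called. Nfkbia was at 16.6 in the 230 TGFbR-KO cells, 5.60 in the 27 cells of the larger and 6.79 in the 52 cells of the smaller TGFbR-WT set, and 8.90 in the 83 TGFbR-CA cells. TGFbR-KO was above the rest, 2.59-fold over the TGFbR-WT pool. Tnfaip3 was at 12.7 in TGFbR-KO, 4.61 and 4.01 in TGFbR-WT and 4.45 in TGFbR-CA, a 3.03-fold difference between TGFbR-KO and the pool. For Rel the values were 3.39 in TGFbR-KO, 1.65 and 0.198 in TGFbR-WT and 0.690 in TGFbR-CA cells. The sets of TGFbR-WT cells were far apart here, the smaller resting on 4 UMIs, and the 5.22-fold ratio of Rel to the pool is 2.06-fold against the larger set. Without the smaller set the ratios were 2.96 for Nfkbia, 2.76 for Tnfaip3 and 2.95 for Nfkbiz. Nfkbiz was at 4.20 against 1.43 and 0.495 in TGFbR-WT and 1.07 in TGFbR-CA cells (5.35-fold over the pool). That pool held only 23 UMIs of Nfkbiz. Nfkbid was at 1.95 against 1.65, 0.495 and 0.533, not called because it was within 1.5-fold of the larger TGFbR-WT set.

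In all, 5 members were called higher in cluster 8 of TGFbR-KO (Rel, Nfkb2, Nfkbia, Tnfaip3 and Nfkbiz), where 4.86% of 6422 genes were higher and 18.6% were called in either direction. Nfkb2 among them rested on 4 UMIs in TGFbR-WT (0.345 against 0.137). No member was called in TGFbR-CA, where 20.6% of genes were in either direction. Rel was detected in 50.9% of TGFbR-KO, 17.7% of TGFbR-WT and 16.9% of TGFbR-CA cells of cluster 8. Tnfaip3 was detected in 78.3%, 43.0% and 68.7%, so that TGFbR-CA, near TGFbR-WT in level, was near TGFbR-KO in the share of cells.

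**Figure D4:**
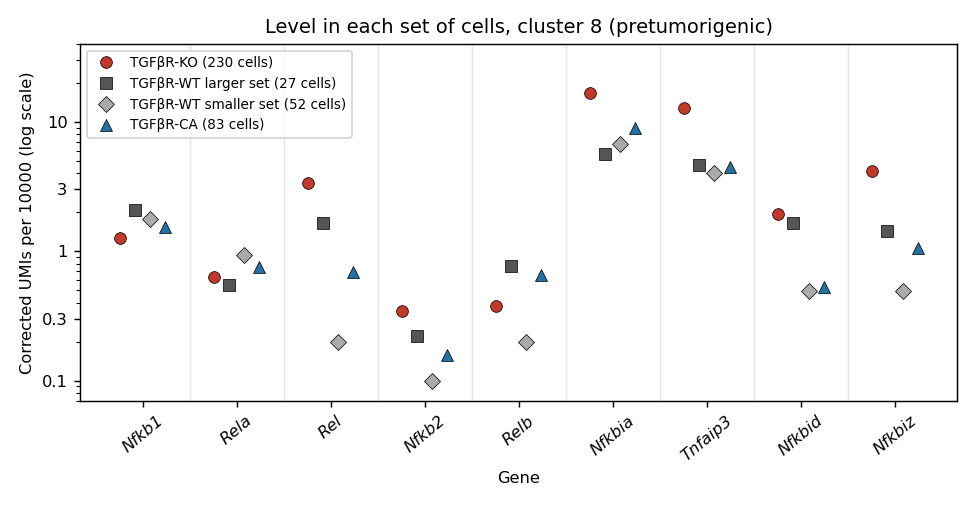
Level of each member in corrected UMIs per 10000 (log axis) in cells of cluster 8 from TGFbR-KO (230 cells), the larger (27) and smaller (52) TGFbR-WT sets and TGFbR-CA (83), 1 point per set. The TGFbR-KO points of Nfkbia (16.6), Tnfaip3 (12.7), Nfkbiz (4.20) and Rel (3.39) lie above the other 3 points.

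Within each condition Tnfaip3 was higher in cluster 8 than in the other clusters shown, cluster 1 aside. Nfkbia set cluster 8 apart less clearly in TGFbR-WT, at 6.42 there against 5.30 in GC TFH cells. In TGFbR-WT it was detected in 54.4% of cluster 8, 57.8% of GC TFH and 61.5% of activated cells. Tnfaip3 was at 12.7 in cluster 8 and 0.510 in the clusters other than 1 and 8 of TGFbR-KO, and the ratio of these was 7.69 in TGFbR-WT and 10.9 in TGFbR-CA. Nfkbia was at 5.72-fold in TGFbR-KO, 1.83-fold in TGFbR-WT and 2.81-fold in TGFbR-CA. Of all genes 30.0%, 38.3% and 35.0% differed by 1.5-fold in either direction in these 3 comparisons, most of them lower. Those higher were 5.68%, 10.7% and 9.09%. Rel was at 4.14-fold in TGFbR-KO and below 1-fold in the other conditions (0.649 against 0.948 in TGFbR-WT and 0.690 against 0.762 in TGFbR-CA). A list of 20 immediate early and heat shock genes that tissue dissociation is known to switch on moved with the same clusters. Its summed level was 221 in cluster 1 and 497 in cluster 8 of TGFbR-KO, 301 and 335 in cluster 8 of the TGFbR-WT sets, 294 in cluster 8 of TGFbR-CA, and 50.8 to 86.2 in the other TGFbR-KO clusters. Of its 19 compared genes, 8 were higher in TGFbR-KO than TGFbR-WT cells of cluster 8, where 4.86% of all genes were. Atf3 was at 0 in TGFbR-WT and TGFbR-CA cells. Cluster 1 of TGFbR-KO was below cluster 8 by 1.5-fold for 13 of the 19 list genes, where 13.6% of all genes were lower. The part of this list in the result was not tested.

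In the other clusters few members were called. GC TFH cells had none in TGFbR-KO (9.11% of genes) or in TGFbR-CA (8.59%). In TR TFH cells Nfkb1 and Tnfaip3 were lower in TGFbR-KO (9.88% of genes called), Tnfaip3 at 0.182 against 0.517 and 0.299 in the TGFbR-WT sets, and none was called in TGFbR-CA (6.12%). In activated cells Nfkb1 (0.57-fold) and Nfkbid (0.50-fold) were lower and Nfkbiz (1.85-fold) higher in TGFbR-KO (13.2%), and Rela was lower (0.57-fold) and Tnfaip3 higher (1.63-fold) in TGFbR-CA (13.2%). Migratory cells, with fewer than 20 cells in the smaller TGFbR-WT set, were not compared; Nfkb1 was at 1.43 in TGFbR-KO, 1.66 in TGFbR-WT and 2.75 in TGFbR-CA cells there.

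Most cells of cluster 1 held several of the 5 genes that were high there. At least 3 of Rel, Nfkbia, Tnfaip3, Nfkbid and Nfkbiz, a grouping made with their values known, were detected in 93.6% of cluster 1 cells of TGFbR-KO (90.6% to 95.9%, 338 of 361 cells), and 94 cells held all 5. Their separate shares in cluster 1, from 42.9% for Nfkbid to 96.7% for Tnfaip3, make such a count likely without any tie between the genes, so it describes the cluster only. In cluster 8 the share was 65.7% in TGFbR-KO (59.1% to 71.8%), 26.6% in TGFbR-WT (17.3% to 37.7%) and 27.7% in TGFbR-CA (18.4% to 38.6%). The cell-level intervals of TGFbR-KO and the other conditions did not overlap, which speaks of these cells and not of replicate animals. The 5 genes were grouped for their high TGFbR-KO values, so this comparison too is a description only. In GC TFH cells it was 22.3%, 24.6% and 19.4% in the same order, and in TR TFH cells 3.66%, 5.87% and 4.50%. Over the clusters other than 1 and 8 the share was 8.31% in TGFbR-KO, 10.6% in TGFbR-WT and 9.28% in TGFbR-CA cells.

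**Figure D5:**
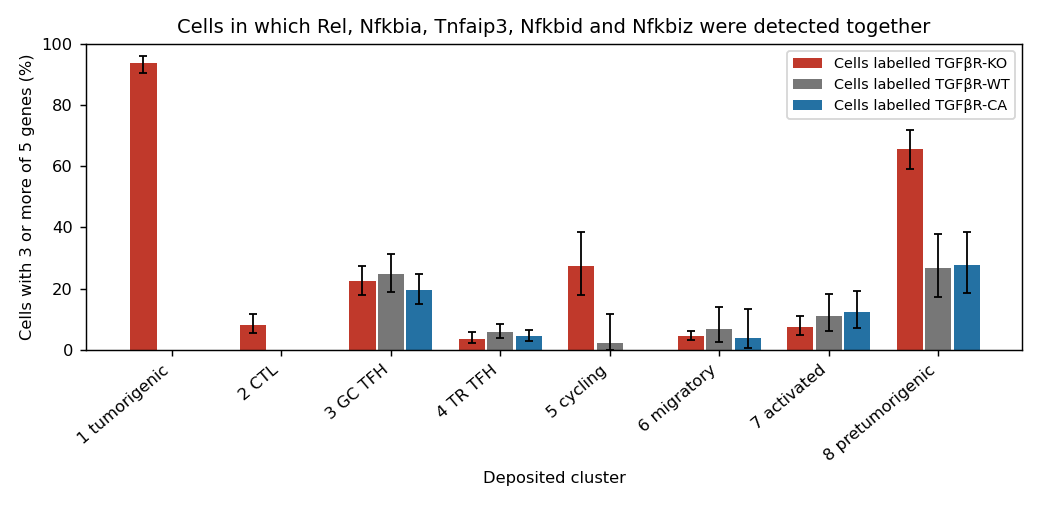
Percent of cells with at least 3 of Rel, Nfkbia, Tnfaip3, Nfkbid and Nfkbiz above 0, by cluster and condition, with exact (Clopper-Pearson) 95% intervals over cells. Cluster 1 of TGFbR-KO is at 93.6%, and in cluster 8 TGFbR-KO (65.7%) stands above TGFbR-WT (26.6%) and TGFbR-CA (27.7%).

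Outside clusters 1 and 8 of TGFbR-KO some pairs still shared cells more often than their separate shares would give. Rel and Nfkbid were both detected in 74 cells where unrelated detection would give 32.5, Rel and Tnfaip3 in 94 against 61.4, and Nfkbia and Tnfaip3 in 195 against 146.7. Nfkb1 and Tnfaip3 shared 121 cells against 118.4. In cluster 1, where nearly every cell held both, Nfkbia and Tnfaip3 shared 337 cells against 335.5. These counts pool clusters and depths, no doublets were removed here, and they are descriptions.

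Across the 19 groups of cells (cluster and condition with at least 20 cells) the level of Nfkbia followed that of Tnfaip3 most closely of all genes past the UMI minimum, with Pearson's r = 0.96, and Pim3, the gene of a survival kinase, came next for both (0.95 for each). Rel was followed by Nr4a3, an immediate target of T cell receptor signalling (0.91), Nfkbid by Hspa5, the endoplasmic reticulum chaperone (0.90), and Nfkbiz by Rel (0.89). Nfkb1 and Relb had other partners, Gng5 (0.94) and Hif1a (0.89), and against Tnfaip3 they were at -0.35 and -0.34. Groups of 1 condition come from the same libraries and the same clustering, so these values are descriptions.

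The rest of the pathway, 39 genes in 6 lists, had few calls between conditions over all cells and more within some clusters. Over all cells none of the 38 genes compared was higher in TGFbR-KO and 1 was lower, Malt1, the gene of a paracaspase, at 0.686 against 1.80 in TGFbR-WT. None was called in TGFbR-CA. Of all genes 2.76% were higher and 5.45% lower in TGFbR-KO, and 3.94% were called in TGFbR-CA. In pretumorigenic cells 4 of 34 were higher and 7 lower in TGFbR-CA, where 6.18% and 14.4% of all genes were. In TGFbR-KO these were 3 and 5, where 4.86% and 13.8% were. In activated cells 6 of 36 were higher and 4 lower in TGFbR-CA (4.39% and 8.81% of genes), and 2 and 3 in TGFbR-KO. In GC TFH and TR TFH cells at most 1 was higher and 2 were lower in either condition. In cluster 1 against the other TGFbR-KO cells 9 of the 38 were higher and 4 lower. Of all genes 6.43% were higher and 25.9% lower in this comparison, 32.4% in either direction. The higher ones included Zc3h12a (Regnase-1, an RNase, 5.20-fold), the IκB genes Nfkbib (2.06-fold) and Nfkbie (1.57-fold), the TNF receptor gene Tnfrsf1b (2.54-fold), the ubiquitin ligase gene Birc3 (2.92-fold) and Map3k14 (1.64-fold), the gene of the NIK kinase of the alternative arm. The lower ones were the kinase genes Ikbkb (0.53-fold) and Prkcq (0.55-fold), and Traf2 (0.51-fold) and Tnip2 (0.63-fold).

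Of 18 known NF-κB target genes, 15 could be compared between TGFbR-KO and TGFbR-WT over all cells. Those higher were 5 (Ccl4, Il2, Bcl2l1, Gadd45b and Tnf, of which Bcl2l1 and Tnf are named after their values were seen), 1 was lower (Cd83, 0.067 against 0.433), where 2.76% and 5.45% of all genes were, and the median ratio was 1.26, beside 0.89 over all genes. Ccl4 and Il2 were at low levels in TGFbR-WT (0.0161 and 0.0860), which limits their ratios. Il2 was 2.01-fold over the larger TGFbR-WT set and 14.6-fold over the smaller. With clusters 1 and 8 left out 1 of 14 target genes was higher and 3 were lower (7.42% of genes called). In cluster 1 against the other TGFbR-KO cells 9 of 17 were higher, where 6.43% of all genes were, and 1 was lower (Ltb, 0.52-fold, named after its values were seen). Those higher included Csf2 (6.30-fold), Gadd45b (12.5 against 2.49) and the activation marker Cd69 (4.48-fold). The median ratio was 2.13 beside 0.84 over all genes. In TGFbR-CA none of 14 was higher and 1 was lower than in TGFbR-WT cells (3.94% of genes called).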

How the data were processed

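Cells were captured with the 10x Chromium 3′ chemistry, and per the labels and the submitters' processing notes reads were processed with Cell Ranger 3.1.0 (mouse build mm10) and Seurat. The authors filtered and integrated the cells, removed γδ T and epithelial cells, clustered and named them, and deposited 1 table of natural log values, ln(corrected UMI + 1) after SCTransform, with a cluster name per cell. Undoing the log gave whole numbers within 1e-06 for every value above 0. Corrected UMIs are not raw counts, so sequencing depth is not known and no count model was used. A step against doublets is not given in the sources used here beyond an upper limit on genes per cell, and none was added.

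Levels, shares and ratios were computed with Python 3.11.15, numpy 2.4.6, pandas 2.3.3 and scipy 1.17.1, and figures with matplotlib 3.10.9; the code was tested on simulated data. TGFbR-KO and TGFbR-CA were each set against TGFbR-WT over all cells, with equal weights for 4 clusters, and within clusters with at least 20 cells of every set. Likeness is Pearson's r of log2(level + 0.1). Named genes were the 9 members, the 3 genes most like each, and up to 4 genes per list with the largest ratio, either way, in cluster 1 against other TGFbR-KO cells or in TGFbR-KO against TGFbR-WT. Members and gene lists were chosen with earlier results of these data known. The marker genes Trdv4 and Csf1r were not analysed here. Alternatives were another fold (2), scales, centring, left-out clusters, barcodes or TGFbR-WT sets, and other minima.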

Additional observations from a re-analysis of the deposited data

Results flagged for a closer look

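Tnfaip3 went in opposite directions in different clusters of TGFbR-KO cells. In cluster 8 its level was 3.03-fold that of pooled TGFbR-WT cells and above both TGFbR-WT sets. In TR TFH cells it was 0.406-fold, at 0.182 corrected UMIs per 10000 against 0.517 in the larger and 0.299 in the smaller TGFbR-WT set. The TR TFH value rests on 35 corrected UMIs of Tnfaip3 in 519 TGFbR-KO cells and 74 in 460 TGFbR-WT cells. The difference between the clusters was not tested, since each condition comes from too few pools of mice.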

How the results depend on the processing

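No paired analysis was possible because no test was made, and neither TGFbR-WT set is tied by the labels to a numbered sample or to the sequencing run it shared with TGFbR-KO or TGFbR-CA. Over all cells, the count of 5 members called in TGFbR-KO was 3 on the mean of corrected UMIs per cell, and 2 (Tnfaip3 and Nfkbiz) on the mean of log values, on the share of cells above 0, at a fold of 2 and without clusters 1 and 2. It was 1 without clusters 1 and 8, a setting chosen after seeing the data, where Rel (0.86), Nfkbia (0.83) and Tnfaip3 (0.93) turned below TGFbR-WT. Without either TGFbR-WT set it ranged from 5 to 6, Nfkb2 being added, lower, without the larger set, and without the shared barcodes it was 5. Of all genes 13.8% were called without the smaller set and 29.0% without the larger, against 8.21% with both.

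With equal cluster weights the count of 3 was 0 on the share of cells, 1 at a fold of 2 and 1 without clusters 1 and 8, and ranged from 3 to 7 without either TGFbR-WT set. The 7 came without the larger set, where 28.8% of genes were called. Without the smaller set 14.9% of genes were, against 5.87% with both sets. In TGFbR-CA the counts of 0 ranged from 0 to 2 over all cells (Nfkb2 and Tnfaip3, lower, without the larger set) and from 1 to 2 with equal weights (Rel and Nfkbid, lower, without the smaller set, or Nfkb2 without the larger), where 12.8% to 22.4% of genes were called, and were 0 under the other settings. Nfkbia in TGFbR-KO was 1.04-fold by share of cells. Without a UMI minimum 12.1% and 7.48% of genes were called in TGFbR-KO and TGFbR-CA. Of the 27 genes most like a member, 21 remained with a pseudocount of 0.5 and 24 with a minimum of 50 UMIs. The cause of these shifts was not tested. Values under about 20 corrected UMIs, as for Rel and Nfkb2 in cluster 8 of TGFbR-WT, limit what a ratio can show, and the corrected values do not give the depth.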
